A study of Mus musculus with 8 samples.

Results

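The genes described here encode the matrix metalloproteases (Mmp), the Adamts proteases with the related Adamts-like proteins, and the tissue inhibitors of metalloproteases (Timp), measured in yolk sac of mouse embryos at embryonic day 9.5. Members were taken by symbol, as genes named Mmp or Timp followed by a number or with a name beginning Adamts, and for each the probe set that was brightest on average across the 8 arrays was read. This gave 42 of 18194 genes on the array, namely 18 Mmp genes, 15 Adamts genes, 5 Adamts-like genes and 4 Timp genes, covered by 78 probe sets. Of the 42, 19 passed the filter on dim genes (a mean signal above 67.9, the 40th percentile of all genes) and were tested among 10913 genes.

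Altered Notch signalling in endothelium was studied in a pair of models, each with 2 mutant and 2 wild type arrays. EC-N1ICD embryos (Tie2 Tg/0; ROSA +/N1ICD, strain C57BL6) express the Notch1 intracellular domain after Tie2-Cre removes a STOP cassette, and their wild type was Tie2 0/0; ROSA +/+. EC-Rbpj-KO embryos (Tie2-Cre; Rbpj flox/flox, mixed strain) lack RBPJ, the DNA-binding partner of Notch, in Tie2-Cre cells, and no genotype was given for their wild type. RNA came from the whole yolk sac of every embryo, while the Tie2 promoter drives Cre in endothelium and also in blood lineages, so the cells that carry a recombined allele are only a part of the tissue measured. The tissue label was checked on its markers, and 10 of 10 visceral endoderm genes lay above the array median on all 8 arrays. Rbpj gave signals of 470 and 497 in EC-Rbpj-KO yolk sacs, against 984 and 919 in their wild type. The Notch target Hey1 had 319 and 298 in EC-N1ICD yolk sacs, against 147 and 103 in their wild type. It moved little in the other model, with 66 and 69 in EC-Rbpj-KO yolk sacs, against 72 and 70 in their wild type (log2 -0.07). The arrays differed in the female transcript Xist, which had 3600 and 3730 in EC-N1ICD yolk sacs, against 96 and 96 in their wild type, and 2005 and 84 in EC-Rbpj-KO yolk sacs, against 90 and 77 in their wild type. Sex and genotype therefore cannot be told apart in the EC-N1ICD set, and EC-Rbpj-KO replicate 1 stood apart from the other 3 arrays of its set. The replicate 1 arrays of both mutants also have a leading sample number of their own, unlike the other 3 arrays of their set, which share theirs, and what this number marks was not given.

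Matrix metalloproteases cut collagens, gelatins and other components of the extracellular matrix, and most are secreted as inactive precursors that other proteases, such as plasmin or furin, must open. Adamts proteases carry thrombospondin repeats that hold them in the matrix, and several of them cut the large proteoglycans versican and aggrecan, whereas Adamts-like proteins share the repeats but have no protease domain. Timps bind the active site of these enzymes and block it. When a vascular plexus is remodelled into larger vessels, the matrix around the endothelium is cut and rebuilt.

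The members ranged from clear signal to background in this tissue. A signal was called at background here where it lay under the array median, taken over all probe sets of the array, which ran from 38 to 51 across arrays, because the deposited values carry no detection calls. By this measure 16 of the 42 members lay at background on all 8 arrays, 10 of them Mmp genes, 4 Adamts genes, 1 an Adamts-like gene and 1 a Timp gene. The 23 members that were not tested had signals between 8 and 95. Besides those in the gene cluster described next, they were Mmp9, Mmp16, Mmp17, Mmp19, Mmp24, Adamts6, Adamts7, Adamts16, Adamts19, Adamts20, Adamtsl1, Adamtsl3, Adamtsl4 and Timp4. The 4 Mmp genes with enough signal to test were Mmp2, Mmp11, Mmp14 and Mmp23.

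**Figure D1:**
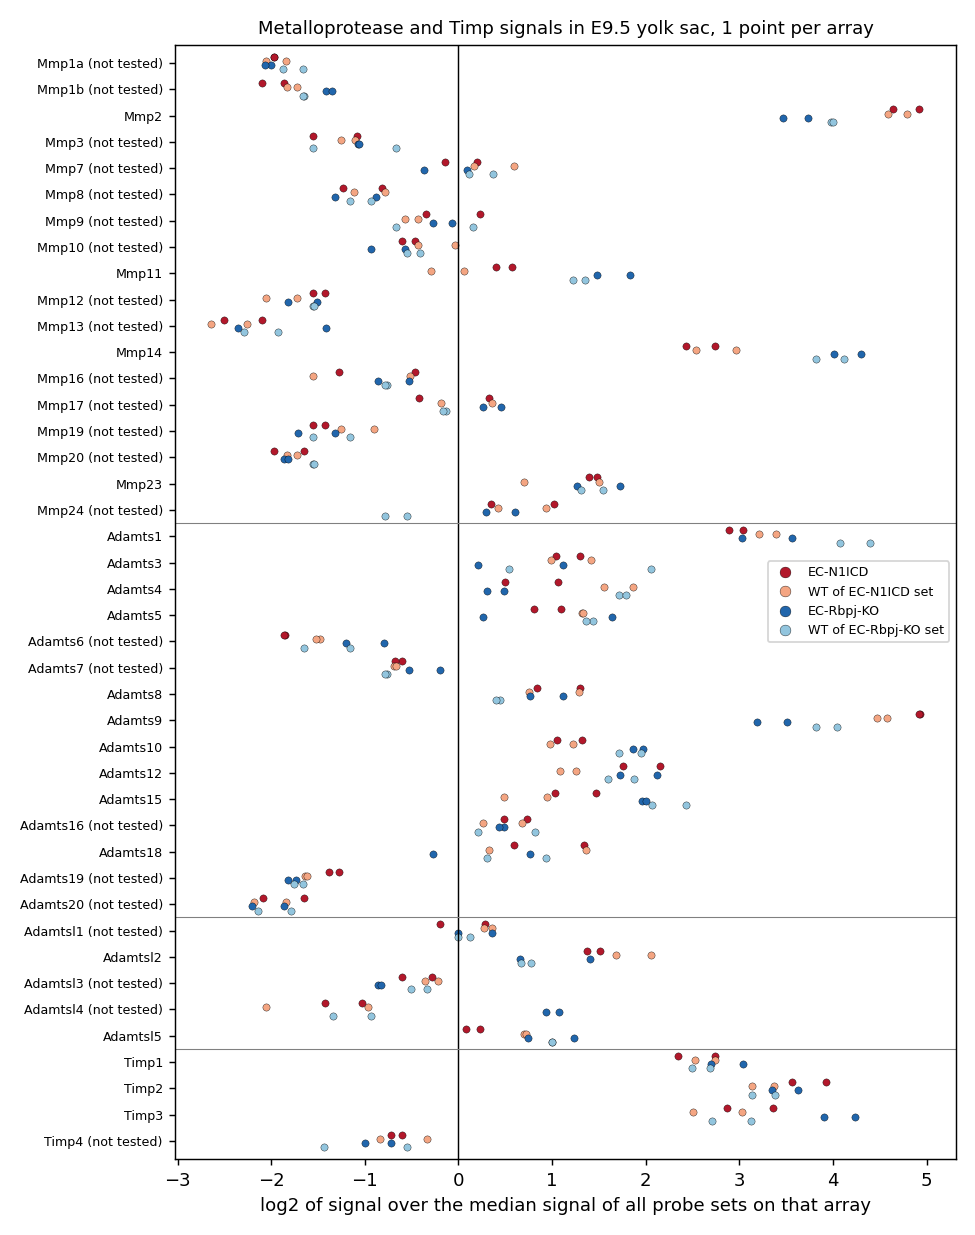
Signal of each of the 42 members on each of the 8 arrays, as log2 of the signal over the median of all probe sets on that array, with 1 point per array coloured by group and members in rows by class. Points left of the line at 0 are at background as defined here, where 16 members have all 8 of their points; distances between different genes do not compare their transcript levels.

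A block of the background genes lay in 1 place in the genome. The 9 measured Mmp genes on chromosome 9 follow each other as Mmp13, Mmp12, Mmp1b, Mmp3, Mmp1a, Mmp10, Mmp8, Mmp20 and Mmp7, and include the collagenases, the stromelysins Mmp3 and Mmp10 and the macrophage elastase Mmp12. None of the 9 was tested, and 8 of them lay at background on all 8 arrays, with signals from 8 to 42. Mmp7, matrilysin, was the exception, at 54 and 46 in EC-N1ICD yolk sacs and 56 and 65 in their wild type, and at 31 and 49 in EC-Rbpj-KO yolk sacs and 57 and 41 in their wild type. These signals sat around the array medians, and no order of the groups can be read from them.

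The promoters of these genes also had features in common. RefSeq promoters (build GRCm38.p6, 250 bases before to 50 after the gene start) were at hand for 27 of the 42 members and were searched for the AP-1 motif TGANTCA, the binding sequence of Fos and Jun dimers, which reads the same on both strands. It was found in 8 of these 27 members (29.6%), against 8.97% of 27025 genes, and all 8 were in the chromosome 9 cluster, where Mmp8 alone had no match. None of the 13 tested members with a promoter had it. The 8 are neighbouring genes of the same family, so their matches may not be independent. Matches of letters are a description and not evidence of binding. The windows below are shown because this motif was shared by the cluster and by no other member with a promoter here; they run in gene order with the motif in capitals, 5′ to 3′ on the strand of the gene.
Mmp13 (chr9:7272457-7272507, plus strand): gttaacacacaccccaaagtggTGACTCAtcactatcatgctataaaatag
Mmp12 (chr9:7347308-7347358, plus strand): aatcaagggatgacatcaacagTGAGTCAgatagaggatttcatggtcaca
Mmp1b (chr9:7388091-7388141, minus strand): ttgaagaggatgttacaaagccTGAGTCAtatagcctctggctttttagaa
Mmp3 (chr9:7445754-7445804, plus strand): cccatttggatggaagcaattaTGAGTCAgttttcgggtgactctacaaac
Mmp1a (chr9:7464046-7464096, plus strand): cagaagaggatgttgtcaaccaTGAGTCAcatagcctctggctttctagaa
Mmp10 (chr9:7502257-7502307, plus strand): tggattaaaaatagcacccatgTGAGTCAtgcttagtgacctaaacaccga
Mmp20 (chr9:7628114-7628164, plus strand): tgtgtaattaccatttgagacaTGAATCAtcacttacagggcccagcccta
Mmp7 (chr9:7692005-7692055, plus strand): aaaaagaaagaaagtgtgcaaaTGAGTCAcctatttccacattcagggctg

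The first base of the motif lay 35 bases before the start in Mmp13, 44 in Mmp12, 46 in Mmp3, 63 in both Mmp10 and Mmp7, 73 in Mmp1a, 93 in Mmp1b and 95 in Mmp20. The form with G in the centre occurred in 6 of the 8 windows, Mmp13 had the C form (the same site read on the other strand) and Mmp20 had an A there. Mmp1a and Mmp1b are close paralogs, and their probe sets may not tell them apart. Base composition also set the cluster apart. G and C made up 37.7 to 46.7% of the cluster promoters (median 43%, 9 genes). The tested members had 55 to 77.3% (median 66%, 13 genes), and the median over all promoters was 52.7%. The other untested members lay above that median too, from 53.3% in Timp4 to 80% in Mmp24. Low G and C content thus marked the cluster and not untested members in general. The dinucleotide CG occurred a median of 1 time per cluster promoter and 21 times in the tested members, beside 7 over all promoters.

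**Figure D2:**
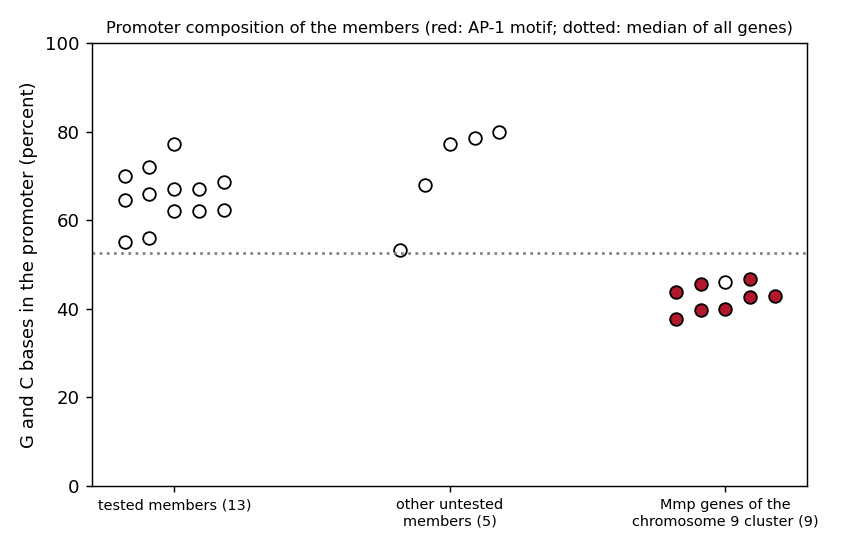
Percent of G and C bases in the 300-base promoter of each member with a RefSeq promoter, for 13 tested members, 5 other untested members and the 9 Mmp genes of the chromosome 9 cluster; red points hold the AP-1 motif and the dotted line is the median of all promoters (52.7%). All 9 cluster genes lie below the line and 8 of them are red, and all 13 tested and 5 other untested members lie above it.

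The motif bound by RBPJ, GTGGGAA on either strand, was sought because RBPJ is the factor removed in 1 of the models. It was present in 3 of 27 members (11.1%), against 7.25% of all genes. These were the tested genes Adamtsl2 and Mmp23 and the cluster gene Mmp7, whose match lay in a promoter of another start than the one with the AP-1 motif. The windows follow with the motif in capitals, which for Mmp23 is read on the opposite strand.
Adamtsl2 (chr2:27079290-27079340, plus strand): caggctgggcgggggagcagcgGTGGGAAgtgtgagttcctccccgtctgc
Mmp23 (chr4:155653241-155653282, minus strand): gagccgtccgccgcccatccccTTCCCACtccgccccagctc
Mmp7 (chr9:7692205-7692255, plus strand): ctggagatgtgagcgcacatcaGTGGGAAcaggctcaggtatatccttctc

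In EC-N1ICD yolk sac no member passed the test, with log2 fold changes from -0.85 for Adamts4 to 0.87 for Adamts12. The median log2 fold change over the 19 tested members was 0.16, beside 0.01 over all tested genes. With limma and a Benjamini-Hochberg adjusted p under 0.05, 0 of 19 members were higher, against 0.376% of all tested genes, and 0 of 19 were lower, against 0.22%. At an unadjusted p under 0.05, 6 of 19 members passed (31.6%), against 12% of all tested genes. Both EC-N1ICD arrays lay above both wild type arrays for 6 of the 19 members (31.6%), against 23.7% of all genes, and below both for 4 members (21.1%), against 18.9% of all genes. The shares without overlap were near those of all genes. In RNA from whole tissue, fewer cells of a type and less RNA per cell cannot be told apart.

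The members of at least 1.5-fold in EC-N1ICD whose arrays did not overlap were Adamts12, Adamts15, Adamts4 and Mmp11. Adamts12, which cuts cartilage oligomeric matrix protein, gave signals of 209 and 173 in EC-N1ICD yolk sacs, against 119 and 91 in their wild type, without overlap (1.83-fold, log2 0.87 ± 0.25 (SE, n = 2 each), adjusted p = 0.17). Adamts15, a versican-cutting enzyme, had 130 and 104 in EC-N1ICD yolk sacs, against 70 and 83 in their wild type (1.53-fold, adjusted p = 0.306). Adamts4 lay the other way, at 98 and 72 in EC-N1ICD yolk sacs, against 147 and 156 in their wild type (log2 -0.85 ± 0.25, adjusted p = 0.177). None of these differences passed the threshold across all genes.

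Among the Mmp genes, Mmp11 (stromelysin-3, which furin activates inside the cell) gave signals of 62 and 76 in EC-N1ICD yolk sacs, against 52 and 35 in their wild type (1.61-fold, adjusted p = 0.362), with 1 wild type array at background. Mmp2, gelatinase A, overlapped between groups, with 1418 and 1270 in EC-N1ICD yolk sacs, against 1387 and 1035 in their wild type (log2 0.16, 95% interval -0.28 to 0.61). Mmp14, the membrane protease that opens the Mmp2 precursor with the help of Timp2, also overlapped, at 314 and 275 in EC-N1ICD yolk sacs and 390 and 250 in their wild type (log2 -0.09, 95% interval -0.55 to 0.38). The intervals of Mmp2 and Mmp14 do not show that these genes were unaffected, only that a change past them is not supported by 2 arrays a group.

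The tested members with an RBPJ motif in the windows printed above were not past the threshold in either model. Adamtsl2, which binds latent Tgfb complexes, had 122 and 145 in EC-N1ICD yolk sacs, against 160 and 179 in their wild type (log2 -0.35 ± 0.31, adjusted p = 0.75), and 63 and 122 in EC-Rbpj-KO yolk sacs, against 70 and 65 in their wild type (log2 0.38 ± 0.31, adjusted p = 0.535). Mmp23, a membrane-anchored protease, had 124 and 142 in EC-N1ICD yolk sacs, against 81 and 122 in their wild type (log2 0.42 ± 0.29, adjusted p = 0.64). Adamts5 and Adamts18 overlapped with their wild type in both models, Adamts10 in EC-N1ICD only.

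Of the inhibitors in EC-N1ICD, Timp2 had 713 and 603, against 518 and 378 in its wild type, without overlap (1.48-fold, adjusted p = 0.231), and the direction was the same in all 6 of its probe sets, 2 of which lay at background. Timp3 had 342 and 525 in EC-N1ICD yolk sacs, against 283 and 351 in their wild type, and the groups overlapped (1.34-fold, adjusted p = 0.557). Neither of these passed the threshold. Timp1, whose gene is X-linked so that the sex of the embryos bears on it, had 315 and 260 in EC-N1ICD yolk sacs, against 288 and 288 in their wild type (log2 -0.01 ± 0.18, adjusted p = 0.992). Timp4 was at background on all 8 arrays, at 31 and 31 in EC-N1ICD yolk sacs and 28 and 34 in their wild type.

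In EC-Rbpj-KO yolk sac 3 of the 19 tested members changed: the inhibitor Timp3 rose, and the proteoglycan-cutting proteases Adamts1 and Adamts4 fell. By the same test 1 of 19 members was higher (5.26%), against 2% of all tested genes, and 2 of 19 were lower (10.5%), against 2.96% of all tested genes. At an unadjusted p under 0.05, 4 of 19 passed (21.1%), against 19.9% of all tested genes. The median log2 fold change over the 19 members was 0.14, beside -0.02 over all tested genes, with medians of -0.34 over the 10 Adamts genes, 0.19 over the 4 Mmp genes and 0.35 over the 3 Timp genes. Both EC-Rbpj-KO arrays lay above both wild type arrays for 7 members (36.8%), against 23.3% of all genes, and below both for 3 members (15.8%), against 27.5% of all genes.

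Timp3 binds to the matrix and, unlike the other inhibitors, also blocks Adam17 and several Adamts proteases, and it can keep Vegf from its receptor Kdr. Its probe set gave 598 and 866 in EC-Rbpj-KO yolk sacs, against 288 and 332 in their wild type, so that the lower mutant array was well above the higher wild type array. The rise was 2.33-fold (log2 1.22 ± 0.25 (SE, n = 2 each), 95% interval 0.68 to 1.76, adjusted p = 0.0173). The other 3 Timp3 probe sets were also higher, with log2 fold changes from 0.58 to 1.23, and the dimmest of them lay around background. Without EC-Rbpj-KO replicate 2 the log2 fold change was 0.95 (adjusted p = 0.0863), and without replicate 1 or 2 of the wild type it was 1.12 (adjusted p = 0.109) or 1.32 (adjusted p = 0.0755).

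Adamts1, a protease that cuts versican and aggrecan and restrains vessel growth, gave signals of 473 and 375 in EC-Rbpj-KO yolk sacs, against 742 and 799 in their wild type, from its only probe set. Both mutant arrays lay below both wild type arrays, at 0.547 times the wild type (log2 -0.87 ± 0.19 (SE, n = 2 each), adjusted p = 0.0253). In EC-N1ICD it had 385 and 377, against 524 and 397 in its wild type, again with both mutant arrays lower, but the difference was small beside the gap between the wild type arrays (log2 -0.26 ± 0.19, adjusted p = 0.669). Without EC-Rbpj-KO replicate 2 the fall in EC-Rbpj-KO had an adjusted p of 0.104, and without replicate 1 or 2 of the wild type of 0.106 or 0.186.

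Adamts4, aggrecanase-1, gave signals of 56 and 57 in EC-Rbpj-KO yolk sacs, against 144 and 131 in their wild type, or 0.411 times the wild type (log2 -1.28 ± 0.25 (SE, n = 2 each), adjusted p = 0.0149). The mutant arrays lay just above the array medians of 40 and 46, so the size of the fall is limited by background. The other probe set of the gene was at 43 and 21 in EC-Rbpj-KO yolk sacs, against 56 and 55 in their wild type. Without replicate 1 or 2 of the wild type the adjusted p was 0.103 or 0.0846, and with the leading sample number as a block, a fit chosen after seeing the data, it was 0.0518. The study picked this gene from these same arrays, so its direction here is not independent evidence.

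**Figure D3:**
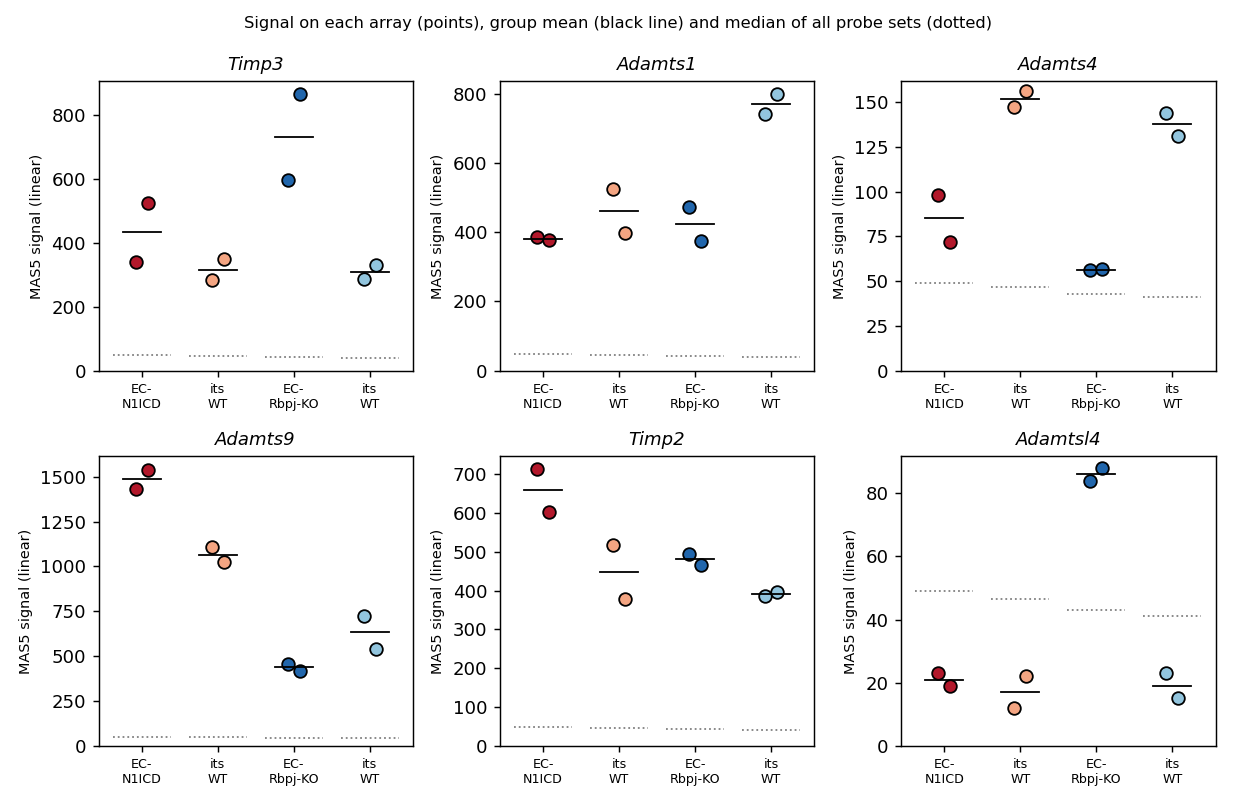
Deposited signal (linear scale) of 6 members on each array, with 2 points per group, a black line at their mean and a dotted line at the mean of the group's array medians. Timp3 is higher and Adamts1 and Adamts4 are lower in EC-Rbpj-KO than in its wild type without overlap, while Adamtsl4 is above the dotted line in EC-Rbpj-KO only.

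The promoters of Timp3 and Adamts1 are given as the regulatory sequence next to the start of a gene that rose and a gene that fell in EC-Rbpj-KO. They are in lower case up to the start and in capitals from the start on, 5′ to 3′ on the strand of the gene. Neither contains the letters of the RBPJ or the AP-1 motif within this window. Timp3 has 67% G and C with 24 CG dinucleotides, and Adamts1 has 64.7% with 18.
Timp3 (chr10:86300162-86300461, plus strand): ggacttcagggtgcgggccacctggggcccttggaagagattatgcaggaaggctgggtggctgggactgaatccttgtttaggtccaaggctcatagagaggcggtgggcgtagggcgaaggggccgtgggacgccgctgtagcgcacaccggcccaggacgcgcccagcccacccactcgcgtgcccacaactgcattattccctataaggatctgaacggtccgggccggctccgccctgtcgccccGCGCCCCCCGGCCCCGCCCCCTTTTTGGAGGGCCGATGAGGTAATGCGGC
Adamts1 (chr16:85803064-85803363, minus strand): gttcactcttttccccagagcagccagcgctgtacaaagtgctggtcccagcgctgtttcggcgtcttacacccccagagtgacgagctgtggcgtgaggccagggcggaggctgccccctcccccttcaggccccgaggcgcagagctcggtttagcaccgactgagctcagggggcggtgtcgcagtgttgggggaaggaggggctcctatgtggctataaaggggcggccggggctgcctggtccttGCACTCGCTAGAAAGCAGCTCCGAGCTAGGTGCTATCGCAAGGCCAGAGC

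The remaining 16 tested members were not past the threshold in EC-Rbpj-KO, with log2 fold changes from -0.57 for Adamts3, which cuts procollagen and activates Vegfc, to 0.59 for Adamts8. Adamts8 had 68 and 100 in EC-Rbpj-KO yolk sacs, against 60 and 50 in their wild type (1.51-fold, adjusted p = 0.296). Adamts9, a versican-cutting enzyme named here after its values were seen, had 456 and 419 in EC-Rbpj-KO yolk sacs, against 726 and 538 in their wild type (log2 -0.52 ± 0.18, adjusted p = 0.127). Neither overlapped with its wild type by array, yet neither passed across all genes.

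The inhibitors Timp1 and Timp2 were slightly higher on both EC-Rbpj-KO arrays. Timp1 had 329 and 299 in EC-Rbpj-KO yolk sacs, against 248 and 245 in their wild type (1.27-fold, adjusted p = 0.314). Timp2 had 494 and 467 in EC-Rbpj-KO yolk sacs, against 386 and 397 in their wild type (1.23-fold, adjusted p = 0.418), but 1 of its 6 probe sets ran the other way. Timp4 was at background, with 20 and 28 in EC-Rbpj-KO yolk sacs and 30 and 14 in their wild type.

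The activation pair Mmp14 and Mmp2 lay on opposite sides of the wild type in EC-Rbpj-KO, neither past the threshold. Mmp14 had 789 and 741 in EC-Rbpj-KO yolk sacs, against 623 and 662 in their wild type (1.19-fold, adjusted p = 0.552), and 1 of its 3 probe sets was lower. Mmp2 had 442 and 611 in EC-Rbpj-KO yolk sacs, against 695 and 609 in their wild type, with overlap (log2 -0.32, adjusted p = 0.403). The other tested Mmp genes, Mmp11 and Mmp23, did not pass either. Mmp11 had 142 and 128 in EC-Rbpj-KO yolk sacs, against 103 and 97 in their wild type, without overlap (1.35-fold, adjusted p = 0.432). Mmp23 depended on the probe set: the one used gave 96 and 152 in EC-Rbpj-KO yolk sacs, against 109 and 111 in their wild type, whereas the other gave 86 and 90, against 53 and 52.

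**Figure D4:**
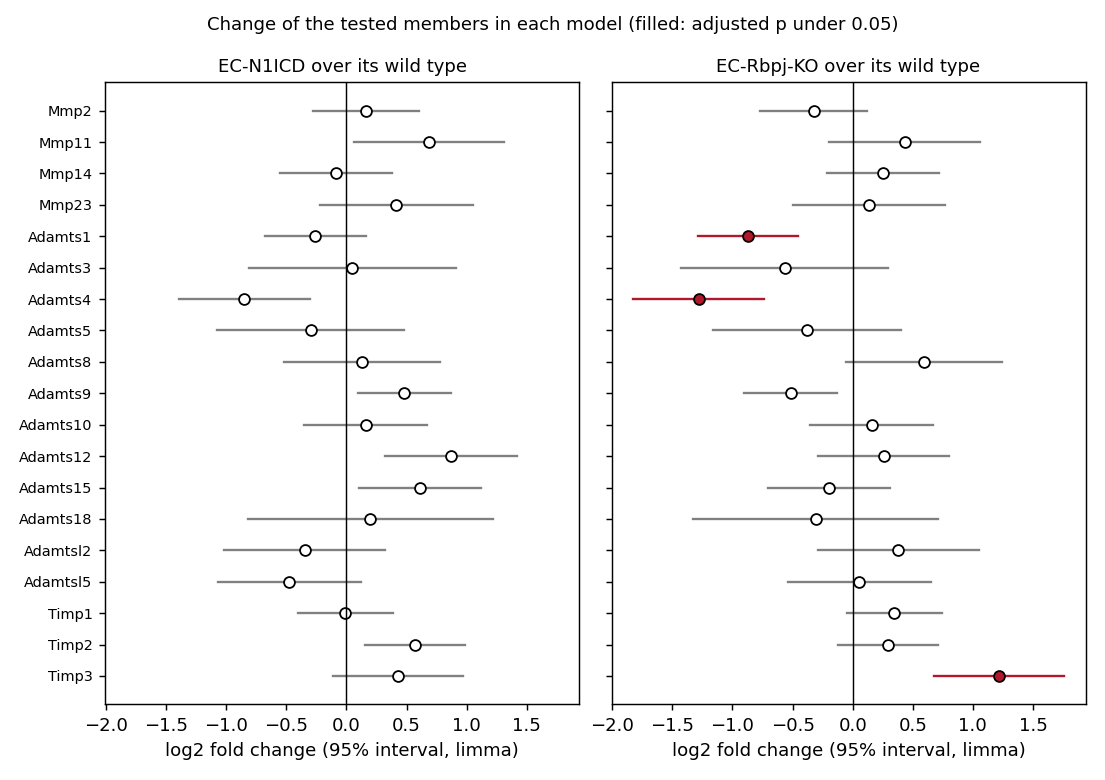
Log2 fold change of each of the 19 tested members over its own wild type in EC-N1ICD (left) and EC-Rbpj-KO (right), with 95% intervals from limma; filled red points have an adjusted p under 0.05. No point is filled on the left, and Adamts1, Adamts4 and Timp3 are filled on the right.

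A few members below the filter had signal in only some of the groups, and these were picked after their values were seen. Adamtsl4, a matrix protein that promotes fibrillin microfibrils, had 84 and 88 in EC-Rbpj-KO yolk sacs, against 23 and 15 in their wild type, and 23 and 19 in EC-N1ICD yolk sacs, against 12 and 22 in their wild type. EC-Rbpj-KO was thus the only group of the 4 above background, at least 2.10-fold higher than its wild type with the array median as the floor. In a fit of all genes without the filter the log2 fold change was 2.21 (adjusted p = 0.00475), so that 4 of the 42 members were then past the threshold, against 2.56% of all genes. Mmp24, a membrane-type protease, had 49 and 70 in EC-Rbpj-KO yolk sacs, against 30 and 22 in their wild type (at least 1.43-fold, adjusted p = 0.0875 without the filter). It had 95 and 65 in EC-N1ICD yolk sacs and 67 and 82 in their wild type, so only the wild type of EC-Rbpj-KO lay at background. The other Mmp24 probe sets were at background on all 4 arrays of the EC-Rbpj-KO set (log2 0.18 and 0.13). Mmp17 had 55 and 55 in EC-Rbpj-KO yolk sacs, against 40 and 34 in their wild type (at least 1.35-fold, adjusted p = 0.46 without the filter). In the EC-N1ICD set it overlapped, at 35 and 64 in EC-N1ICD yolk sacs and 44 and 55 in their wild type.

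For genes with several probe sets the choice of probe set mattered in some cases, as 21 of the 42 members had more than 1. The Mmp2 probe sets gave log2 fold changes of 0.15 and 0.16 in EC-N1ICD yolk sacs and -0.32 and -0.32 in EC-Rbpj-KO. Those of Adamts9 ran from -0.07 to 0.69 in EC-N1ICD yolk sacs and from -0.73 to 0.14 in EC-Rbpj-KO. For Adamtsl5, which binds fibrillin, the probe set used gave 94 and 77 in EC-Rbpj-KO yolk sacs, against 88 and 76 in their wild type, and the other gave 94 and 55, against 40 and 31. The members that changed, Timp3 and Adamts4, had the same direction in all their probe sets.

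**Figure D5:**
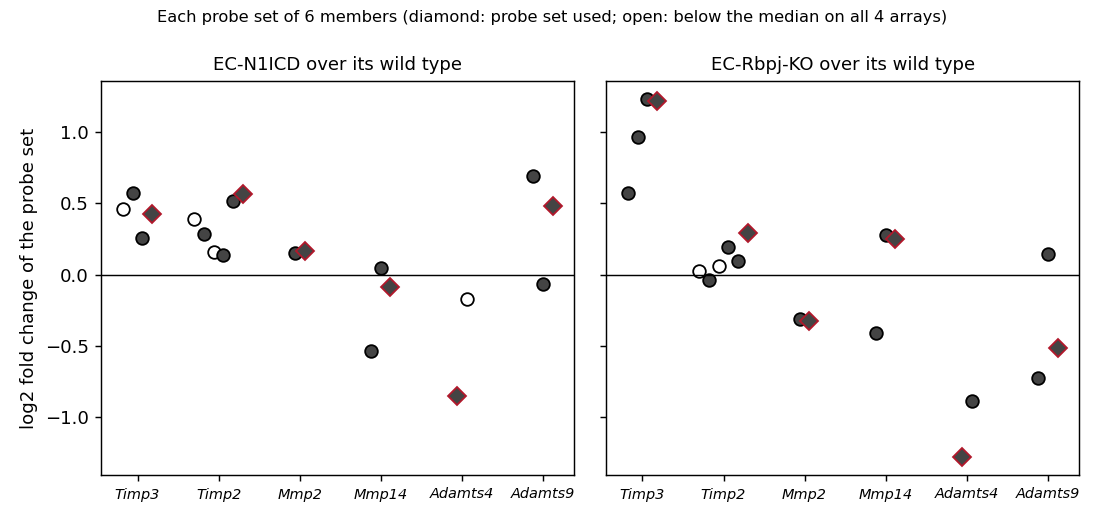
Log2 fold change of every probe set of 6 members over its own wild type, in EC-N1ICD (left) and EC-Rbpj-KO (right), where a diamond is the probe set used and an open point lay at background on all 4 arrays of the comparison. All 4 Timp3 probe sets are above 0 in both panels, and the Adamts9 and Mmp14 probe sets fall on both sides of 0.

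When the models were set against each other, no member passed. The difference of the log2 fold changes had an adjusted p under 0.05 for 0 of 19 members, against 0.266% of all tested genes, while 4 of 19 passed at an unadjusted p under 0.05 (21.1%), against 10.8% of all tested genes. The smallest adjusted p was that of Adamts9, with a difference of 0.996 ± 0.25 (adjusted p = 0.167): its signals were 1433 and 1540 in EC-N1ICD yolk sacs, against 1109 and 1023 in their wild type, and lay below their wild type in EC-Rbpj-KO, as given above. Adamts9 thus lay apart from its wild type in both models, in opposite directions. Adamts1 and Adamts4 were lower in both models and Mmp11 and Timp2 higher, without overlap and without a difference that passed. The share of all genes that lay apart in both models was not counted. These directions therefore describe single genes and are not a result about the members. The difference for Timp3 was -0.79 ± 0.35 (adjusted p = 0.439), so a greater rise in EC-Rbpj-KO than in EC-N1ICD was not shown.

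In some members the wild types of the sets lay apart. Adamts9 had 1109 and 1023 in the wild type of the EC-N1ICD set and 726 and 538 in that of the EC-Rbpj-KO set, and Mmp14 had 390 and 250 in the first of these and 623 and 662 in the other. Strain and set cannot be told apart in these values, and each mutant was set only against its own wild type.

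Genes of the systems that activate the members and of the matrix they cut were counted next to the members, beside the 2% of all tested genes that were higher and the 2.96% that were lower in EC-Rbpj-KO, and 0.376% and 0.22% in EC-N1ICD. Of 15 measured genes for pericellular activators and inhibitors, 13 were tested; in EC-Rbpj-KO 1 rose and 1 fell, and none passed in EC-N1ICD. Plat, tissue plasminogen activator, had 543 and 424 in EC-Rbpj-KO yolk sacs, against 249 and 221 in their wild type (log2 1.03 ± 0.22, adjusted p = 0.0208). In EC-N1ICD Plat lay the same way without passing, at 375 and 275, against 222 and 182 in its wild type (1.60-fold, adjusted p = 0.213). Plg, the precursor of plasmin, had 2378 and 2906 in EC-Rbpj-KO yolk sacs, against 5215 and 5217 in their wild type (log2 -0.99 ± 0.14, adjusted p = 0.00277). It too lay the same way in EC-N1ICD, at 1233 and 1319, against 1922 and 2122 in its wild type (log2 -0.66 ± 0.14, adjusted p = 0.0551). Both genes were thus apart from their wild type in both models, and the difference between the models did not pass for Plat (adjusted p = 0.729) or Plg (adjusted p = 0.599).

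Of 19 measured matrix proteins that these proteases cut, 14 were tested. In EC-Rbpj-KO none rose and 2 fell. Vcan, versican, the substrate of Adamts1, Adamts4 and Adamts9, had 224 and 306 in EC-Rbpj-KO yolk sacs, against 466 and 523 in their wild type (log2 -0.92 ± 0.18, adjusted p = 0.0158). Fn1, fibronectin, fell by 0.39 on the log2 scale (8318 and 8481 in EC-Rbpj-KO yolk sacs, against 11092 and 10957 in their wild type, adjusted p = 0.0166). Both lay the other way in EC-N1ICD without passing. Vcan had 1497 and 1601 there, against 1107 and 1158 in its wild type (adjusted p = 0.344). Fn1 had 11927 and 11338, against 10272 and 10066 (adjusted p = 0.349). The difference between the models did not pass for Vcan or Fn1 (adjusted p = 0.0624 for each). In EC-N1ICD 1 of the 14 rose and none fell: Fbn2, fibrillin-2, a microfibril protein, had 822 and 564 in EC-N1ICD yolk sacs, against 279 and 217 in their wild type (log2 1.47 ± 0.22, adjusted p = 0.0156). None of the 8 tested membrane Adam proteases, among them Adam10 and Adam17, and neither of the 2 tested astacin proteins passed in either model. The medians of these lists lay between -0.19 and 0.31, beside 0.01 and -0.02 over all tested genes.

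Marker genes of other cells moved with the EC-Rbpj-KO group. Of 11 tested yolk sac macrophage genes, 5 rose and 2 fell, and the summed signal of the 12 measured was 3658 to 4928 in EC-Rbpj-KO yolk sacs, against 2874 to 3369 in their wild type. Of 10 tested endothelial genes 2 rose, with sums over 12 of 2820 to 4120 in EC-Rbpj-KO yolk sacs, against 2291 to 2409 in their wild type, and Pecam1 at background in both. Neither of these sums overlapped between the groups. The endothelial genes that rose were Cldn5 and Icam2, and Cdh5, Tie1, Esam and Eng were higher without overlap and without passing. Tek was lower without overlap, at 187 and 181, against 276 and 336 in its wild type (adjusted p = 0.103), and Kdr, Egfl7 and Robo4 overlapped. The parietal endoderm list, which contains Plat, summed to 9540 to 11311 in EC-Rbpj-KO yolk sacs, against 7914 to 8405 in their wild type, and of its 6 genes 2 rose, Pth1r and Plat. The primitive erythroid list summed to 53800 to 65280 in EC-Rbpj-KO yolk sacs, against 67874 to 69281 in their wild type, with 1 of 8 tested genes lower, the transferrin receptor Tfrc (log2 -1.97 ± 0.30, adjusted p = 0.00382). Pdgfra, of the smooth muscle and mesoderm list, was the 1 gene of 9 tested there that fell (log2 -0.83 ± 0.21, adjusted p = 0.0436), and the sums of that list overlapped, at 4609 to 5718 in EC-Rbpj-KO yolk sacs, against 4838 to 4869 in their wild type. The visceral endoderm genes summed to 165241 to 175294 in EC-Rbpj-KO yolk sacs, against 176812 to 190550 in their wild type, with 2 of 10 lower. No marker of these lists was listed at 0, and the part of cell make-up in the changes of Timp3, Adamts1, Adamts4 and Plat was not tested.

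In EC-N1ICD the smooth muscle and mesoderm list summed to 19763 to 21206, against 11044 to 12411 in its wild type, with 2 of 9 tested genes higher, and the primitive erythroid list to 48095 to 80138, against 91568 to 98540, with 1 of 8 tested genes lower, Tfrc again (log2 -1.64, adjusted p = 0.0337). The sum of the smooth muscle and mesoderm list thus lay above and the erythroid sum below the wild type. Most of the first sum was Acta2, at 14640 and 13687 in EC-N1ICD yolk sacs, against 7480 and 8684 in their wild type. The called genes of that list were Tagln and Myl9, whereas Pdgfra, Hand1 and Foxf1 overlapped with their wild type. The megakaryocyte and platelet list summed to 910 to 1430 in EC-N1ICD yolk sacs, against 2400 to 3410 in their wild type, with 1 of 6 genes lower. Of 11 tested macrophage genes 1 rose in EC-N1ICD, Ly86 (136 and 101, against 28 and 27 in its wild type, at least 2.53-fold, adjusted p = 0.029). Without passing, Cx3cr1, Csf1r, Ptprc, Adgre1 and Tyrobp were higher there without overlap, and Fcgr3, Mrc1, Cd68 and Cd14 lower without overlap. The nearest of these to the threshold was Fcgr3, at 514 and 355, against 741 and 1121 in its wild type (adjusted p = 0.0575). The macrophage sums overlapped, at 2720 to 3282 in EC-N1ICD yolk sacs, against 2912 to 3142 in their wild type. Of 6 parietal endoderm genes 1 was lower in EC-N1ICD, Thbd (log2 -1.55 ± 0.27, adjusted p = 0.0314). Macrophage markers were thus called in both models. Of the neutrophil list, the cells that store Mmp8 and Mmp9, 4 to 6 of 7 genes lay at background on every array, and of the trophoblast and decidua list 4 or 5 of 5. Of the 2 tested genes of the neutrophil list 1 was lower in EC-N1ICD, the myeloperoxidase gene Mpo, with 35 and 38 in EC-N1ICD yolk sacs, against 160 and 107 in their wild type (at least 2.67-fold lower, adjusted p = 0.0156). A change in neutrophils cannot be read from this gene alone. The arrays also differed in a sign of RNA quality. Signal ratios of 3′ to 5′ for Actb were 1.72 and 1.75 in EC-N1ICD yolk sacs, against 2.10 and 2.34 in their wild type, and 2.29 and 2.09 in EC-Rbpj-KO yolk sacs, against 1.90 and 1.84 in their wild type. The ratios for Gapdh were 2.43 and 2.48 in EC-N1ICD yolk sacs, against 3.12 and 2.76 in their wild type, and overlapped in the other set, at 4.64 and 3.45 in EC-Rbpj-KO yolk sacs, against 3.17 and 3.51 in their wild type. The part of these ratios in the results was not tested. The fit with sex as a term cannot test the part of sex in the 3 members that changed. Of the EC-Rbpj-KO set only mutant replicate 1 had high Xist, so this fit set mutant replicate 2 alone against both wild type arrays.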

How the data were processed

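RNA of whole yolk sac was hybridised to 8 Affymetrix arrays (2 per group). The deposited values are linear intensity signals, 1 per probe set, summarised by the authors with MAS5 per the labels; its version and scaling are not given in the sources used here. The labels name the Mouse Genome 430A Array, and the table holds 45101 probe sets, of which 34958 name 1 gene. Signals ran from 7 to 36554, with array medians of 38 to 51; for arrays, their number limits the precision.

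Genes were read from their probe set of highest mean signal, and limma 3.58.1 (R 4.3.3) was run on the log2 signals of genes above the 40th percentile (1 mean per group, eBayes with trend, 4 residual and 7.37 prior degrees of freedom), two-sided, with Benjamini-Hochberg adjustment over all 10913 tested genes. An exact permutation test of 2 arrays against 2 reaches no p under 0.333. The steps were tested on simulated data. Alternatives changed the constant added, filter, probe set rule, scaling, arrays fitted, variance prior, sex term and test, left out each array and, chosen after seeing the data, took the leading sample number as a block. Named members were the 4 Timps, those past the threshold, and those of at least 1.5-fold whose arrays did not overlap; Mmp2, Mmp14, Mmp23, Mmp7, Mmp17, Mmp24, Adamts3, Adamts5, Adamts9, Adamts10, Adamts18, Adamtsl2, Adamtsl4 and Adamtsl5 were described beyond this rule. Members and lists were chosen with earlier results of these data known. The labels do not say in words that the samples of a group were separate yolk sacs, so p-values cover only the spread among the arrays. Promoters came from RefSeq (GRCm38.p6).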

Additional observations from a re-analysis of the deposited data

Results flagged for a closer look

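Among the members and the genes of the lists, the change of 2 genes differed between the models by the test of the difference itself. For Fbn2, fibrillin-2, the log2 difference EC-N1ICD minus EC-Rbpj-KO was 2.25 ± 0.31 (limma, adjusted p = 0.0185). Its signals gave 822 and 564 in EC-N1ICD yolk sacs, against 279 and 217 in their wild type, and 206 and 206 in EC-Rbpj-KO yolk sacs, against 376 and 334 in their wild type (log2 -0.78 ± 0.22, adjusted p = 0.0647). For Mpo, myeloperoxidase, of the neutrophil list, the difference was -2.88 ± 0.39 (limma, adjusted p = 0.0185), with 35 and 38 in EC-N1ICD yolk sacs, against 160 and 107 in their wild type, and 347 and 378 in EC-Rbpj-KO yolk sacs, against 218 and 143 in their wild type (log2 1.04 ± 0.27, adjusted p = 0.0535).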

How the results depend on the processing

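The count of members that changed in EC-N1ICD was 0 under all alternatives but the methods' t-test, which gave 2 (Adamts9 higher, Adamtsl5 lower; 8.6% of all genes) at its unadjusted threshold and 0 after Benjamini-Hochberg adjustment. In EC-Rbpj-KO the count was 3. The methods' t-test at its unadjusted threshold gave 5 (12% of all genes), namely Adamts1, Adamts4, Mmp11, Timp1 and Timp2. Timp3 was not among them and so lost its call under that test. After adjustment of the t-test the count was 0, with 1 of all 10913 genes left. The calls of Timp3 and Adamts1 were lost when EC-Rbpj-KO replicate 2 or either wild type array was left out, and that of Adamts4 with either wild type array left out. Each of these fits leaves 1 array in a group and called fewer of all tested genes than the main fit. Without the filter the count was 4 (2.56% of all genes), and with the filter at the 60th percentile 2 of the 7 members then tested (Adamts1 and Timp3, with 5.59% of all genes). With each set fitted alone Adamts1 had an adjusted p of 0.0544. The count of members that differed between the models was 0 under all alternatives run; the methods' t-test has no form for this difference. Of 350 values of 18 single-gene results under the alternatives, 333 kept their side of the threshold, 14 lost and 3 gained the call, and 0 reversed a called direction. The causes were not tested. Timp3 lost its call in 5 of 20 alternatives, Adamts1 in 5 of 20 and Adamts4 in 4 of 19. No paired analysis was possible because the replicate numbers follow the order of the samples and pair no mutant with a wild type yolk sac. An alternative chosen after seeing the data took the leading sample number as a block, which leaves 1 mutant array beside both wild type arrays in each set. Adamts4 lost its call in EC-Rbpj-KO under this block, where calls over all tested genes were also fewer than in the main fit. Genes near the array median are limited by background, and with 2 arrays a group each call of EC-Rbpj-KO rests on both of its wild type arrays.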
